A study of Mus musculus with 24 samples.

Results

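The transcription factors examined here are 9 genes that are known to set or maintain the identity of monocyte-derived and tissue MF: *Maf*, *Spic*, *Spi1*, *Nr1h3*, *Pparg*, *Mitf*, *Tfec*, *Zeb2* and *Bach1*. They were picked by symbol from the 53715 genes of the deposited table, and each symbol matched 1 row. All 9 of 9 passed the filter on low values, a normalized count of 50 or more in 1 or more of the 24 libraries, which 11230 genes passed in all. *Spic* passed only through the Ly6Clo libraries and *Tfec* only through the Ly6Chi libraries, so that a difference between the subsets was a condition for either of them to be tested at all.

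The libraries were made from monocytes sorted from peripheral blood (PB) of mice aged 8 to 10 weeks on the C57BL/6 background, and fall into 6 groups of 4. Ly6Chi monocytes, the classical and short-lived subset, came from wild type (wt) and Notch2 mutant (N2ΔMy) mice after Sham crème (Vaseline) or after imiquimod (IMQ), a TLR7 agonist given as Aldara crème with 5% IMQ on depilated skin at 50 mg per mouse and day and sorted on day 5. Ly6Clo monocytes, the blood-resident subset that patrols the vessel wall, came from both genotypes after IMQ only. Their sort took cells with low or no Ly6C and no MHC-II, and no gate against MF surface proteins such as MerTK is named. The study reports that MerTK-positive monocytes expand in blood of N2ΔMy mice after IMQ, and such cells may lie in the N2ΔMy Ly6Clo gate. In N2ΔMy mice Lyz2-Cre, which is active in myeloid cells in general and not in monocytes alone, deletes floxed *Notch2*, and the mice of both genotypes carry a GFP reporter in *Cx3cr1* that was used for sorting. The study's text names the controls Sham-treated in one place and naive in another, and Sham is used here as in the labels. The samples are called biological replicates, but nothing states whether each came from 1 mouse, so the spread between libraries may hold several sources of variation.

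As background, these factors fall into 5 families. PU.1 (*Spi1*) and Spi-C (*Spic*) are Ets factors: PU.1 opens enhancers throughout the myeloid lineage, and Spi-C is known for red pulp MF that recycle iron from red cells. LXRα (*Nr1h3*) and PPARγ (*Pparg*) are nuclear receptors that bind oxysterols and fatty acids with RXR as their partner and are known for MF of the splenic marginal zone and of the lung. c-Maf (*Maf*) and Bach1 (*Bach1*) are bZIP factors that bind Maf recognition elements, the former an activator in resident MF and the latter a repressor of heme and redox genes that heme releases from DNA. MITF and TFEC (*Mitf*, *Tfec*) belong to the MiT/TFE family of lysosome and osteoclast regulators, and ZEB2 (*Zeb2*) is a zinc-finger repressor that myeloid cells need to keep their lineage.

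The values are counts that the authors normalized between libraries and rounded, and differences are given as log2 fold changes of normalized count + 1 with the limma adjusted p, adjusted over all 11230 genes tested. A gene was called when its adjusted p was at most 0.05 and its log2 fold change at least 0.6 in size. The inferred depth was 9521043 to 19759572 reads per library. *Notch2* lay between 12656 and 20005 in wt libraries and between 7240 and 11518 in N2ΔMy libraries, and was called lower in all 3 genotype comparisons, although this value sums exons inside and outside the deleted part. Markers of T and NK cells summed to at most 18 and those of mast cells and basophils to at most 22 in any library. Replicates 1 and 2 carry library identifiers of one run of numbers and replicates 3 and 4 those of another, and the log2 fold changes within each of these library series are given beside the called results.

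The 3 Ly6Chi monocyte markers (*Ly6c2*, *Ccr2*, *Vcan*) summed to 31029 to 37992 in wt and 41790 to 48811 in N2ΔMy Ly6Chi libraries after IMQ, to 26147 to 31393 and 33217 to 39979 after Sham, to 356 to 1236 in wt Ly6Clo libraries and to 5733 to 8213 in N2ΔMy Ly6Clo libraries. The 5 Ly6Clo markers summed to 83858 to 98740 in wt and to 45547 to 56457 in N2ΔMy Ly6Clo libraries, to 18343 to 20155 and 13356 to 16145 in Ly6Chi libraries after Sham, and to 15287 to 26550 and 10228 to 19091 after IMQ. These 2 sums overlapped between the genotypes only for the Ly6Clo markers in Ly6Chi libraries after IMQ. Single markers were called between the genotypes within the Ly6Clo gate, with *Vcan* and *Ccr2* called higher and *Ace*, *Nr4a1* and *Spn* lower in N2ΔMy, while the Ly6Clo marker *Cx3cr1* was at 3682 to 3978 in N2ΔMy and 2378 to 3250 in wt (0.52, limma adjusted p = 0.0173, under the fold criterion). In bulk samples fewer cells of a type and less RNA per cell cannot be told apart. Dendritic cell markers summed to 86 to 531 in wt and to 212 to 1519 in N2ΔMy Ly6Clo libraries, with the highest sum in replicate 3 of N2ΔMy. Erythroid markers ranged from 0 to 1543 and were highest in replicate 4 of each IMQ group, and B cell markers ranged from 55 to 176.

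*Pparg*, *Nr1h3* and *Maf* differed between the subsets in both genotypes, and *Maf*, *Mitf* and *Spic* differed between the genotypes in Ly6Clo monocytes. In wt mice after IMQ, 7 of 9 were called between Ly6Clo and Ly6Chi monocytes, 4 higher and 3 lower in Ly6Clo, beside 24.6% of all genes tested, 11.9% higher and 12.7% lower. In N2ΔMy mice 5 of 9 were called, 4 higher and 1 lower, beside 17.4% of all genes, 9.01% higher and 8.38% lower. These counts include *Spic* and *Tfec*, which had to differ between the subsets to pass the filter, and among the other 7 factors 5 were called in wt and 3 in N2ΔMy. The libraries of the subsets did not overlap for 6 of 9 factors in each genotype, again including *Spic* and *Tfec*, beside 35.4% of all genes in wt and 27.8% in N2ΔMy. Between N2ΔMy and wt Ly6Clo monocytes 3 of 9 were called, *Maf* and *Mitf* higher and *Spic* lower in N2ΔMy, beside 4.78% of all genes, 3.12% higher and 1.67% lower. None of the 9 was called between the genotypes in Ly6Chi monocytes, after IMQ (0.0267% of all genes called, 0.0178% higher and 0.00890% lower) or after Sham (0.0178% called, 0.00890% in each direction). The factors with an unadjusted p of at most 0.05 there were *Maf*, *Nr1h3* and *Mitf* after IMQ and *Maf* and *Spic* after Sham, and their values are given below with each factor. A fit with replicate number as a block called *Maf* between the genotypes in Ly6Chi monocytes after IMQ, and 54 genes in place of 3. IMQ against Sham in Ly6Chi monocytes called 2 of 9 in wt, *Nr1h3* higher and *Spic* lower, beside 9.49% of all genes (4.43% higher, 5.07% lower), and 0 of 9 in N2ΔMy, beside 8.70% (4.15% higher, 4.55% lower). The libraries did not overlap between IMQ and Sham for 1 of 9 factors in wt, *Spic*, beside 21.5% of all genes, and for 0 of 9 in N2ΔMy, beside 19.5%. These comparisons share libraries with each other and are not independent.

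**Figure D1:**
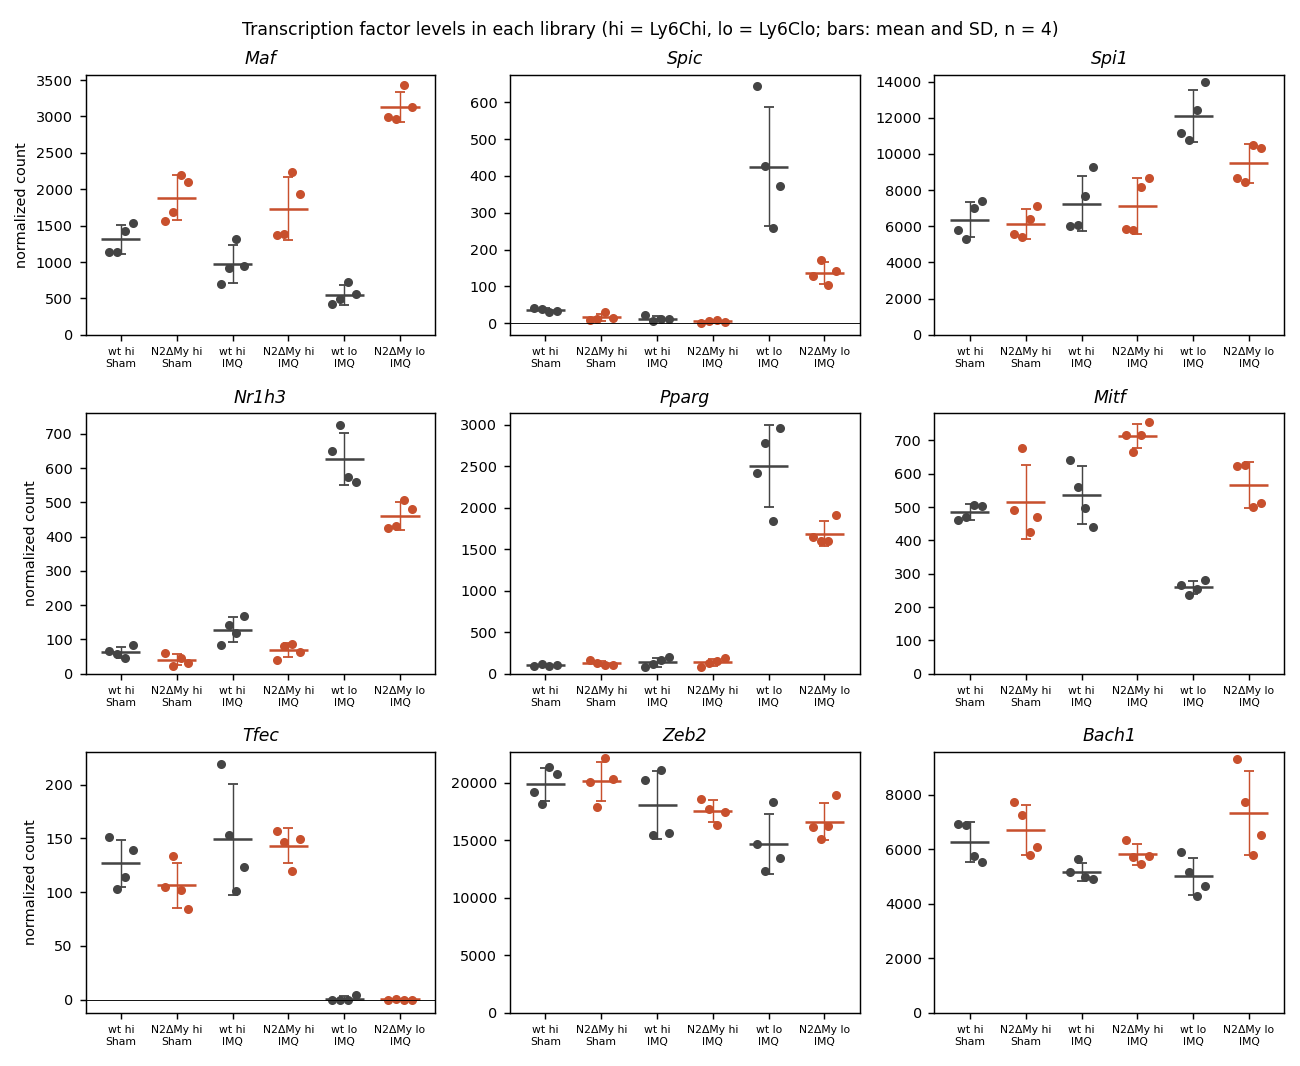
Normalized count of each factor (vertical axes from 0 or just below it, a scale for each gene) in the 24 libraries, by group along the horizontal axis, with wt in grey and N2ΔMy in red; points are libraries, horizontal bars means and error bars SD (n = 4). *Maf* in N2ΔMy Ly6Clo monocytes (2972 to 3426) lies above every other library, and *Tfec* is at 0 in 6 of 8 Ly6Clo libraries.

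Counted per kb of annotated exon, *Spi1* was the highest of the 9 in all 6 groups, with means from 2273 to 4482 normalized counts per kb. This scale compares genes only roughly, since the length of the transcripts present in these cells was not determined. *Zeb2* and *Bach1* lay at 736 to 1188 per kb in each group. In wt Ly6Clo monocytes *Pparg* reached 847 ± 166 per kb (SD, n = 4), within the spread of *Bach1* (809 ± 112) and *Zeb2* (736 ± 132), whereas in wt Ly6Chi monocytes after IMQ it stood at 47.2 ± 18.4 per kb, below *Maf* (118 ± 31.2) and *Mitf* (86.3 ± 14.1). *Maf* in N2ΔMy Ly6Clo monocytes reached 380.0 ± 25.4 per kb, above *Nr1h3* in the same cells (183 ± 15.7), while in wt Ly6Clo monocytes *Maf* (66.5 ± 16) stood below *Nr1h3* (249 ± 30.3). On this scale the order of the 2 factors was thus opposite in the genotypes.

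**Figure D2:**
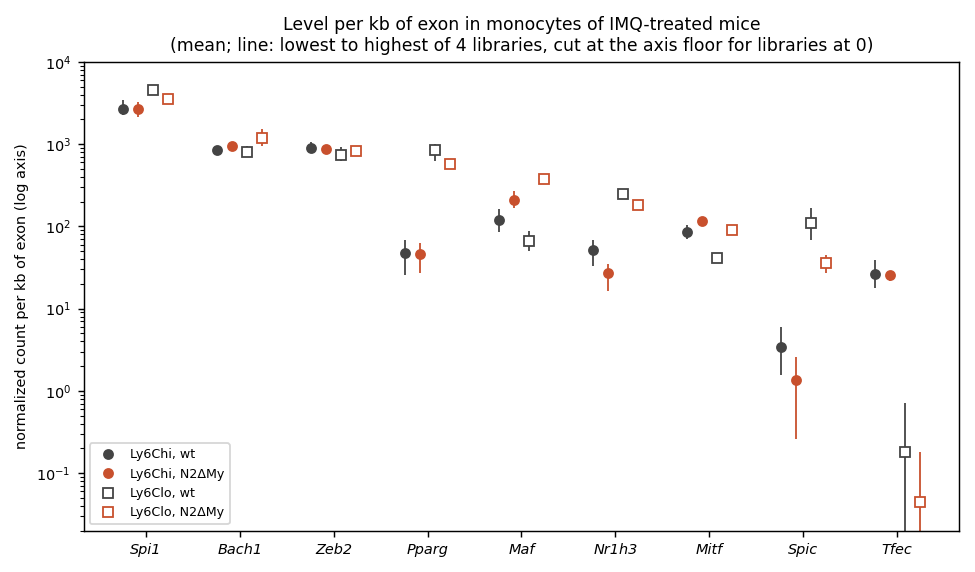
Mean normalized count per kb of exon (log axis) of each factor in Ly6Chi (filled circles) and Ly6Clo monocytes (open squares) after IMQ, wt in grey and N2ΔMy in red; lines run from the lowest to the highest of 4 libraries. *Spi1* is the highest in each group, and *Pparg*, *Nr1h3* and *Spic* stand higher in Ly6Clo than in Ly6Chi monocytes of both genotypes.

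Among the Ets factors, *Spi1* (chromosome 2, 91082390 to 91115756, plus strand) was high throughout and higher in Ly6Clo monocytes. After IMQ its normalized counts were 6037, 6061, 7647 and 9266 in wt Ly6Chi and 11179, 10751, 12427 and 13957 in wt Ly6Clo libraries. The groups did not overlap, and the log2 fold change was 0.75 (SE 0.15, limma adjusted p = 0.00243), or 0.86 and 0.65 within the library series. Quantile normalization took the value under the fold criterion and ended the call (0.54, limma adjusted p = 0.0082). N2ΔMy Ly6Clo libraries stood at 8684, 8424, 10493 and 10331, below every wt Ly6Clo library, but this genotype difference was not called (log2 fold change -0.35, 95% interval -0.61 to -0.09, limma adjusted p = 0.123). The subset difference in N2ΔMy was not called either (0.43, limma adjusted p = 0.0606), and the test of the difference between the genotypes did not separate the 2 subset effects (-0.32, 95% interval -0.79 to 0.16).

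*Spic* (chromosome 10, 88674772 to 88685015, minus strand) was low in Ly6Chi monocytes, at 1 to 41 normalized counts, and higher in Ly6Clo monocytes. It passed the filter only through Ly6Clo libraries. A subset difference was thus a condition for testing it, and its adjusted p-values between the subsets are descriptive. Its normalized counts were 643, 427, 259 and 372 in wt Ly6Clo libraries and 23, 6, 12 and 11 in wt Ly6Chi libraries after IMQ. No library of one subset reached the other, and the subsets differed by 31.78-fold (log2 fold change 4.99, SE 0.39, limma adjusted p = 4.3e-06), by 5.34 and 4.64 within the library series. In N2ΔMy the values were 129, 172, 103 and 142 in Ly6Clo and 1, 6, 10 and 4 in Ly6Chi libraries, a 25.67-fold difference (4.68, limma adjusted p = 6.3e-05), by 5.32 and 4.04 within the series. *Spic* fell 2.99-fold in N2ΔMy against wt Ly6Clo monocytes (log2 fold change -1.58, SE 0.26, limma adjusted p = 0.00552), and every N2ΔMy library lay below every wt library. Within the library series the log2 fold change was -1.81 and -1.35, and the call was lost in the second series alone (limma adjusted p = 0.0628) and without the filter on low values (0.0805). The lower Ly6Clo marker sum of these N2ΔMy libraries stood beside this result, and its part in it was not tested.

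In wt Ly6Chi monocytes *Spic* also fell after IMQ. Sham libraries of wt mice held 41, 39, 32 and 33 against 23, 6, 12 and 11 after IMQ, a call in wt (log2 fold change -1.54, -1.66 and -1.42 within the library series, limma adjusted p = 0.0268), and the inferred reads behind these groups were 141 and 55. Sham libraries of N2ΔMy mice held 9, 12, 31 and 15 against 1, 6, 10 and 4 after IMQ (-1.61, limma adjusted p = 0.119, and 0.045 with the replicate block). Neutrophil-type markers summed to 3108 to 8597 in Ly6Chi libraries after IMQ and to 708 to 1388 after Sham, mostly *S100a8*, *S100a9* and *Mmp8*, while *Ly6g* was at 0 in all 8 IMQ libraries, and their part in these differences was not tested. Leaving out 1 library at a time ended the wt call in 5 of 8 cases, with limma adjusted p from 0.0548 to 0.0748. It was also lost without the filter on low values (limma adjusted p = 0.0895) and in the first (0.131) and second library series alone (0.17). The wt Sham values also stood above all N2ΔMy Sham values, without a call (-1.21, limma adjusted p = 0.921).

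The sequence before the *Spic* start is shown because it belongs to the gene with the largest subset difference among those present in both subsets. It covers the 250 bases before the RefSeq start (GRCm38.p6, chromosome 10, 88683024 to 88683273, minus strand), which lie in an intron of the longer GENCODE gene model, written 5′ to 3′, with capitals on the Maf recognition half-site TGCTGA found on the printed strand.
Spic: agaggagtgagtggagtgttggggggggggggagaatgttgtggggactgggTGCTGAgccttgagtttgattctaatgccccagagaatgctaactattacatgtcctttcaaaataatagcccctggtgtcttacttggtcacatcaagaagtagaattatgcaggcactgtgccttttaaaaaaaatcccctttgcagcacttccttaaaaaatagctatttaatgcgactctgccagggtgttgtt
The half-site begins 198 bases before the start, and 16.1% of 32851 promoter windows of this length hold it on one strand or the other. The Ets motif GAGGAA (PU-box) is not in this window on either strand, while 23.3% of all windows hold it.

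The nuclear receptor genes were the second group that was higher in Ly6Clo monocytes. *Pparg* (chromosome 6, 115360951 to 115490399, plus strand) held 2424, 2780, 1845 and 2958 in wt Ly6Clo and 76, 117, 163 and 201 in wt Ly6Chi libraries after IMQ, an 18.70-fold difference (log2 fold change 4.23, SE 0.27, limma adjusted p = 1.4e-06), by 4.77 and 3.68 within the library series. In N2ΔMy it held 1645, 1600, 1597 and 1918 in Ly6Clo and 80, 130, 156 and 183 in Ly6Chi libraries (12.74-fold, log2 fold change 3.67, limma adjusted p = 1.1e-06), by 3.98 and 3.37 within the series. All Ly6Clo libraries thus lay above all Ly6Chi libraries in both genotypes. Between the genotypes in Ly6Clo monocytes *Pparg* had an adjusted p under the limit but a difference under the fold criterion (log2 fold change -0.55, 95% interval -0.86 to -0.23, limma adjusted p = 0.0482), and the groups overlapped through 1 wt library at 1845. Without that library, replicate 3 of wt, the difference passed both criteria (-0.69, limma adjusted p = 0.00578), as it did in the first library series alone (-0.68, limma adjusted p = 0.0164). In Ly6Chi monocytes *Pparg* had the same order of magnitude in all 4 groups (76 to 201), with a genotype difference after IMQ of 0.01 (95% interval -0.74 to 0.76).

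*Nr1h3* (chromosome 2, 91184061 to 91202834, minus strand), which encodes LXRα, showed the subset difference and a response to IMQ. Wt Ly6Clo libraries held 650, 725, 574 and 560, and wt Ly6Chi libraries 83, 142, 120 and 169 after IMQ, a 4.98-fold difference (log2 fold change 2.32, SE 0.21, limma adjusted p = 1.1e-05), by 2.65 and 1.99 within the library series. N2ΔMy Ly6Clo libraries held 425, 430, 506 and 481, and N2ΔMy Ly6Chi libraries 41, 82, 87 and 63 (6.91-fold, 2.79, limma adjusted p = 8.2e-06), by 2.86 and 2.72 within the series. The Ly6Clo libraries of N2ΔMy lay below all of wt without a call (-0.44, 95% interval -0.71 to -0.17, limma adjusted p = 0.0603), by -0.68 in the first library series, where it was called when fitted alone (limma adjusted p = 0.0335), and by -0.20 in the second. In wt Ly6Chi monocytes *Nr1h3* rose 2.02-fold after IMQ, from 66, 56, 45 and 84 (log2 fold change 1.01, SE 0.27, limma adjusted p = 0.0294), with values of 0.83 and 1.20 from the library series taken singly and 1 overlap between 83 and 84. This call was lost in 6 of 8 cases when 1 library was left out, with limma adjusted p up to 0.0886, and in each library series alone. Between the genotypes in Ly6Chi monocytes after IMQ *Nr1h3* differed by -0.91 without a call (95% interval -1.57 to -0.26, limma adjusted p = 0.627), and 1 wt library lay inside the N2ΔMy range. In N2ΔMy Ly6Chi monocytes Sham libraries held 60, 23, 45 and 32, and the difference after IMQ was 0.79 (limma adjusted p = 0.189). The IMQ effects of the genotypes were not shown to differ, since no gene was called in that test (177 of 11230 genes had an unadjusted limma p under 0.05).

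The sequence before *Nr1h3* is shown because it holds the RBPJ motif TGGGAA, the core bound by the DNA-binding partner of Notch, on both strands. The 215 bases (GRCm38.p6, chromosome 2, 91195152 to 91195366, minus strand) end 36 bases before the start, since the bases nearer to it are annotated as exon, and capitals mark the motif.
Nr1h3: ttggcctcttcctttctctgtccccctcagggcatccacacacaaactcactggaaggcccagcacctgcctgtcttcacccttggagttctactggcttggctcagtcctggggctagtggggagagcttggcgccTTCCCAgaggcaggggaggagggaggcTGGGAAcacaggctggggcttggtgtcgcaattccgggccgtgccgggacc
The matches begin 113 bases (reverse complement) and 86 bases (as printed) before the start. At least 1 match stands in 21.6% of all windows and at least 2 in 2.77%, and these letters alone do not show binding. The nuclear receptor half-site AGGTCA, found in 14% of all windows, stands in 2 windows of *Pparg* and in 1 of *Mitf* but not in the windows of *Nr1h3*.

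*Maf* (chromosome 8, 115682942 to 115707794, minus strand) gave the largest genotype difference among the 9 factors. In Ly6Clo monocytes after IMQ its normalized counts were 419, 491, 727 and 555 in wt and 2991, 2972, 3426 and 3137 in N2ΔMy libraries. *Maf* thus rose 5.82-fold in N2ΔMy (log2 fold change 2.54, SE 0.15, limma adjusted p = 1.2e-05), by 2.71 in the first and 2.37 in the second library series. All 4 N2ΔMy libraries stood above all 4 wt libraries, with a two-sided exact permutation p of 0.0286, the smallest that the 70 splits allow. The N2ΔMy Ly6Clo libraries were also above every Ly6Chi library of either genotype, of which the highest was 2243. The Ly6Chi marker sums were also higher in all N2ΔMy than in all wt Ly6Clo libraries, the dendritic cell marker sums overlapped between the genotypes (86 to 531 and 212 to 1519), and their part in the difference was not tested. The part of the MerTK-positive monocytes that the study reports in N2ΔMy blood after IMQ was not tested either.

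The sign of the subset difference in *Maf* depended on the genotype. In wt mice *Maf* fell 1.76-fold from Ly6Chi (703, 915, 1321, 947) to Ly6Clo libraries (log2 fold change -0.82, SE 0.20, limma adjusted p = 0.00955, and 0.0836 without the filter on low values), by -0.82 in each library series, and the lowest Ly6Chi library lay below the highest Ly6Clo library. In N2ΔMy mice it rose 1.84-fold from Ly6Chi (1369, 1382, 2243, 1941) to Ly6Clo libraries without overlap (0.88, SE 0.16, limma adjusted p = 0.00189), and the series taken singly gave 1.12 and 0.65. The difference between these effects was 1.70 (SE 0.28, limma adjusted p = 0.00408), and *Maf* was the 1 of 9 factors called in this test, beside 1.03% of all genes (0.971% with a positive and 0.0623% with a negative difference). It was 1.94 in the first and 1.47 in the second library series alone, where the limma adjusted p was 0.0582.

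In Ly6Chi monocytes *Maf* was above wt in every N2ΔMy library after either treatment, without a call in the fit without pairing. After IMQ the log2 fold change was 0.84 (95% interval 0.36 to 1.31, limma adjusted p = 0.488). With the replicate block the adjusted p was 9.3e-04, and 54 genes were called in place of 3. After Sham, wt libraries held 1138, 1140, 1424 and 1538 and N2ΔMy libraries 1566, 1694, 2194 and 2093, a difference of 0.52 (95% interval 0.22 to 0.83, limma adjusted p = 0.879). The Ly6Chi marker sums given above also did not overlap between the genotypes of Ly6Chi monocytes after either treatment, and their part in the values of *Maf*, *Mitf* and *Spic* there was not tested. In Ly6Chi monocytes 2 of 9 factors did not overlap between the genotypes after IMQ, *Maf* and *Mitf*, beside 3.84% of all genes, and 2 of 9 after Sham, *Maf* and *Spic*, beside 3.15%. In Ly6Clo monocytes 5 of 9 did not overlap, *Maf*, *Mitf*, *Spic*, *Spi1* and *Nr1h3*, beside 12.8%.

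*Bach1* (chromosome 16, 87698945 to 87733346, plus strand), the other bZIP factor, was expressed at 4288 to 9314 in all groups and was called in none of the comparisons. The group with the highest mean was N2ΔMy Ly6Clo (9314, 7724, 5795 and 6526), against 5882, 5179, 4288 and 4654 in wt, a difference of 0.54 (95% interval 0.20 to 0.88, limma adjusted p = 0.0677) with 1 N2ΔMy library inside the wt range. It passed both criteria after quantile normalization (0.61, limma adjusted p = 0.0217), in the first library series alone (0.62, limma adjusted p = 0.0354) and without replicate 3 of N2ΔMy (0.65, limma adjusted p = 0.0389). Between the subsets in wt the difference was -0.05 (95% interval -0.29 to 0.18).

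Both MiT/TFE factors were lower in wt Ly6Clo than in wt Ly6Chi monocytes. *Mitf* (chromosome 6, 97807052 to 98021349, plus strand) held 265, 236, 254 and 282 in wt Ly6Clo and 642, 561, 497 and 439 in wt Ly6Chi libraries after IMQ, and fell 2.04-fold without overlap (log2 fold change -1.03, SE 0.14, limma adjusted p = 2.0e-04), by -1.26 and -0.80 within the library series. In N2ΔMy it held 622, 627, 499 and 513 in Ly6Clo and 716, 665, 717 and 755 in Ly6Chi libraries, a smaller difference that was not called (-0.34, 95% interval -0.60 to -0.09, limma adjusted p = 0.0513). In Ly6Chi monocytes after IMQ all N2ΔMy libraries lay above all wt libraries without a call (0.43, 95% interval 0.16 to 0.70, limma adjusted p = 0.59; 0.20 and 0.65 within the series). *Mitf* rose 2.17-fold in N2ΔMy against wt Ly6Clo monocytes (1.12, SE 0.13, limma adjusted p = 7.0e-04), by 1.32 and 0.92 in the library series. The test of the difference between the subset effects gave 0.69 (limma adjusted p = 0.0752, and 0.0223 with the replicate block), and it was 1.12 in the first and 0.26 in the second series alone. N2ΔMy Ly6Clo values lay within the range of wt Ly6Chi libraries, and the higher Ly6Chi marker sum of these libraries stood beside the result, whose part in it was not tested.

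*Tfec* (chromosome 6, 16833373 to 16898441, minus strand) was detected in every Ly6Chi library and all but absent from Ly6Clo libraries. Its normalized counts were 219, 153, 101 and 123 in wt and 157, 147, 120 and 149 in N2ΔMy Ly6Chi libraries after IMQ, and 0, 0, 0 and 4 in wt and 0, 1, 0 and 0 in N2ΔMy Ly6Clo libraries. The inferred reads were 639 against 4 in wt and 636 against 1 in N2ΔMy, which gives ratios per depth of 142 (95% interval 55.1 to 522) and 612 (109 to 24217) that cover counting error only. Both differences were called (limma adjusted p = 1.5e-05 in wt and 3.0e-06 in N2ΔMy), and Ly6Clo lay below Ly6Chi libraries in both library series. *Tfec* passed the filter only through Ly6Chi libraries. A subset difference was thus a condition for testing it, and these adjusted p-values are descriptive. A count of 3 reads in a single library corresponds to 2.51 to 3.99 normalized counts, so that 6 of 8 Ly6Clo libraries gave no read and no genotype difference was detectable at this depth. Ly6Chi markers summed to 5733 to 8213 in these N2ΔMy Ly6Clo libraries.

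The sequence before *Tfec* is shown for contrast, as that of the gene found in one subset. It covers 250 bases before the start (GRCm38.p6, chromosome 6, 16898442 to 16898691, minus strand), holds none of the 5 motifs searched on either strand, and so carries no capitals.
Tfec: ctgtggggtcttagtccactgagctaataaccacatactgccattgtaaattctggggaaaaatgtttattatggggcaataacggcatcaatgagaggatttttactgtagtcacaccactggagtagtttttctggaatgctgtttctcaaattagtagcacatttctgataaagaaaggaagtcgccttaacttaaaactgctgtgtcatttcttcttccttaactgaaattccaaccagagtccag
The fifth motif, the E-box CATGTG bound by MiT/TFE factors, stands in 12.3% of all windows and in none of the 15 windows of the 7 factors with a RefSeq entry.

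*Zeb2* (chromosome 2, 44983632 to 45117395, minus strand) had the highest group means by normalized count, with libraries at 12283 to 22152, and its subset and genotype differences were small. In Ly6Clo monocytes N2ΔMy libraries held 16156, 15112, 16257 and 18934 and wt libraries 14656, 12283, 18352 and 13452, a difference of 0.19 (95% interval -0.11 to 0.49). Between the subsets the difference was -0.30 in wt (95% interval -0.64 to 0.03) and -0.08 in N2ΔMy (-0.31 to 0.15). The antisense gene *Zeb2os* shares 467 exonic bases with it at 87 to 327 normalized counts, and whether the authors counted by strand is not given in the sources used here. None of the other genes that overlap one of the 9 factors passed the filter.

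**Figure D3:**
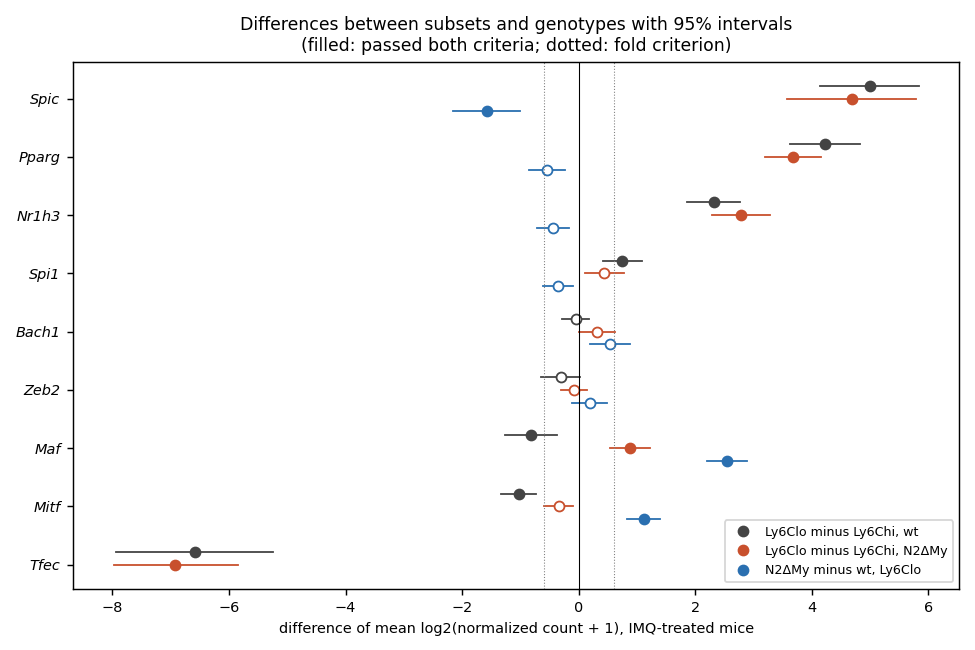
Log2 fold change of normalized count + 1 (horizontal axis) with 95% interval for each factor after IMQ, for Ly6Clo minus Ly6Chi in wt (grey) and N2ΔMy (red) and for N2ΔMy minus wt in Ly6Clo monocytes (blue); filled points passed both criteria, and dotted lines mark the fold criterion of 0.6. *Maf* lies at -0.82 between the subsets in wt and at 0.88 in N2ΔMy, while *Spic*, *Pparg*, *Nr1h3* and *Tfec* keep their direction. *Spic* and *Tfec* passed the filter only through a single subset, and *Tfec* is left out between the genotypes because both groups are at or near 0.

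Genes that accompany these factors were taken from 7 lists. The lists were chosen with earlier results of these data known, so their counts are descriptive. The study's text already names *C1qa*, *Mertk*, *Fcgr1*, *Cd36* and *Cd14*, among others, as higher in N2ΔMy cells of the Ly6Clo gate. Of 15 genes linked to c-Maf and resident MF, 11 passed the filter, and 9 of these rose and 0 fell in N2ΔMy against wt Ly6Clo monocytes, beside 3.12% of all genes higher and 1.67% lower. Among the 11, *C1qa*, *C1qc*, *Cd5l* and *Mertk* passed the filter only through N2ΔMy Ly6Clo libraries. Being high there was thus a condition for testing them, and the count of 9 includes them. The median log2 fold change was 3.56 over the 11, with these genes included, and 0.00 over all genes. The complement genes *C1qa*, *C1qb* and *C1qc* were at 203 to 305, 742 to 1193 and 338 to 568 in N2ΔMy and at 0 to 26, 37 to 102 and 12 to 38 in wt Ly6Clo libraries. For *C1qb* the log2 fold change was 3.88 (SE 0.29, limma adjusted p = 7.1e-05). *Cd5l*, a secreted lipid-binding protein of MF, was at 120 to 229 against 0 to 30, and *Mertk*, a receptor for the uptake of apoptotic cells, at 184 to 376 against 3 to 26. Their log2 fold changes were 4.50 (limma adjusted p = 0.0123) and 4.41 (0.00113), under the filter condition given above. *F13a1* (3.56) also rose, from 71 to 450 in wt to 1190 to 1962 in N2ΔMy, but it stood at 19222 to 30456 in Ly6Chi libraries after IMQ. *Mrc1* (3.32), *Stab1* (3.34) and *Selenop* (0.74) rose as well and also had lower means in wt Ly6Clo than in Ly6Chi libraries after IMQ, at 8.25 against 60.5 and 66.5 for *Mrc1*, 17.2 against 83.2 and 137 for *Stab1*, and 3084 against 4245 and 5440 for *Selenop* (Ly6Chi of wt and N2ΔMy). The mean of *Mertk* was likewise lower, at 13.5 against 19.8 and 33.2. In N2ΔMy Ly6Clo libraries the means of *Mrc1* (89.2), *Stab1* (174) and *Mertk* (250.5) were above both Ly6Chi means, that of *Selenop* (5290) lay between them and that of *F13a1* (1572) below both. The part of the Ly6Chi markers and of MerTK-positive monocytes in these calls was not tested, and the list median is the value of *F13a1*. In Ly6Chi monocytes 0 of these 11 genes were called between the genotypes after either treatment, where 0.0267% (IMQ) and 0.0178% (Sham) of all genes were called, so that nothing about the list can be read from this count.

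The lipid genes linked to PPARγ moved in both directions in the same comparison, with 2 of 8 higher and 2 lower beside 3.12% and 1.67% of all genes. Of 8 tested, *Lpl*, which hydrolyses lipoprotein triglycerides, rose from 140 to 248 in wt to 2269 to 2966 in N2ΔMy (log2 fold change 3.71, SE 0.17, limma adjusted p = 9.9e-07), and the scavenger receptor *Cd36* rose from 424 to 1761 to 1969 to 3980 (1.83, limma adjusted p = 0.0141). The fatty acid carrier *Fabp4* fell (-1.14, limma adjusted p = 0.00971), as did the transglutaminase *Tgm2* (-0.80, limma adjusted p = 0.0304). The median over the 8 was 0.08. Between the subsets in wt 4 of 8 were called higher and 1 lower in Ly6Clo, beside 11.9% and 12.7% of all genes, with *Fabp4* (4.57), *Tgm2* (4.50) and *Cd36* (3.96) among the former and *Lpl* (-1.54) as the latter.

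In the remaining lists the genotype calls in Ly6Clo monocytes stand beside 3.12% of all genes called higher and 1.67% called lower. Of 11 LXR targets 1 rose, the phospholipid transfer gene *Pltp* (0.67, limma adjusted p = 0.00765), and of 14 MiT/TFE targets 1 rose, the lysosomal protease *Ctsd* (0.71, limma adjusted p = 0.0147). Of 17 PU.1 targets 4 rose and 0 fell: the scavenger receptor *Msr1* (2.15), *Cd14* (1.42), the Fc receptor *Fcgr1* (1.16) and *Ncf1* (0.79), with limma adjusted p from 5.7e-04 to 0.004. *Msr1* was at 805 to 1460 in Ly6Chi libraries after IMQ and at 61 to 82 in wt and 243 to 455 in N2ΔMy Ly6Clo libraries. The means in wt Ly6Clo libraries were also below those in wt and N2ΔMy Ly6Chi libraries after IMQ for *Cd14* (194 against 429 and 618), *Fcgr1* (871 against 1202 and 1541), *Ncf1* (3158 against 4714 and 5878) and *Ctsd* (1406 against 1485 and 1961). The same held for *Lpl* (196 against 580 and 1382) and for *Irf4* (254 against 816 and 997). In N2ΔMy Ly6Clo libraries the means of *Fcgr1* (1983), *Ctsd* (2308), *Lpl* (2538) and *Irf4* (1018) were above both Ly6Chi means, those of *Cd14* (525) and *Ncf1* (5504) lay between them, and the part of the Ly6Chi markers in these calls was not tested. Of 12 Spi-C and Bach1 targets for heme, iron and redox handling 0 were called, with a median of 0.12. Among 15 relatives and partners of the factors 1 rose, *Irf4* (2.05, limma adjusted p = 0.00245).

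Between the subsets in wt, where 11.9% of all genes were called higher and 12.7% lower in Ly6Clo, the relatives that were higher in Ly6Clo were *Id3* (2.52), *Bach2* (1.83), *Zeb1* (1.80) and *Tfeb* (0.74), and those that were lower were *Irf4* (-1.77), *Rxra* (-1.16) and *Irf8* (-0.62), with limma adjusted p from 2.9e-05 to 0.00206, while 8 of 15 were not called. *Rxra*, the partner of both nuclear receptors, was thus lower in the subset in which *Pparg* and *Nr1h3* were higher. LXR targets were called higher in 4 of 11 cases and lower in 1, led by *Pltp* (2.58), and MiT/TFE targets in 2 and 3 of 14, led by *Gpnmb* (-4.61) and *Acp5* (3.24). *Gpnmb* passed the filter only through Ly6Chi libraries after IMQ, so being high there was a condition for testing it against Ly6Clo or Sham. PU.1 targets were called higher in 2 and lower in 4 of 17, led by *Msr1* (-3.63), and Spi-C and Bach1 targets higher in 2 of 12, *Treml4* (2.75) and *Blvrb* (1.76). Beside 4.43% of all genes higher and 5.07% lower, IMQ against Sham in wt Ly6Chi monocytes called 4 higher and 0 lower of 14 MiT/TFE targets, 2 and 2 of 11 LXR targets, 0 and 2 of 8 PPARγ targets, 0 and 3 of 17 PU.1 targets, 2 and 0 of 12 Spi-C and Bach1 targets, 1 and 1 of 11 c-Maf-linked genes and 0 and 3 of 15 relatives.

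**Figure D4:**
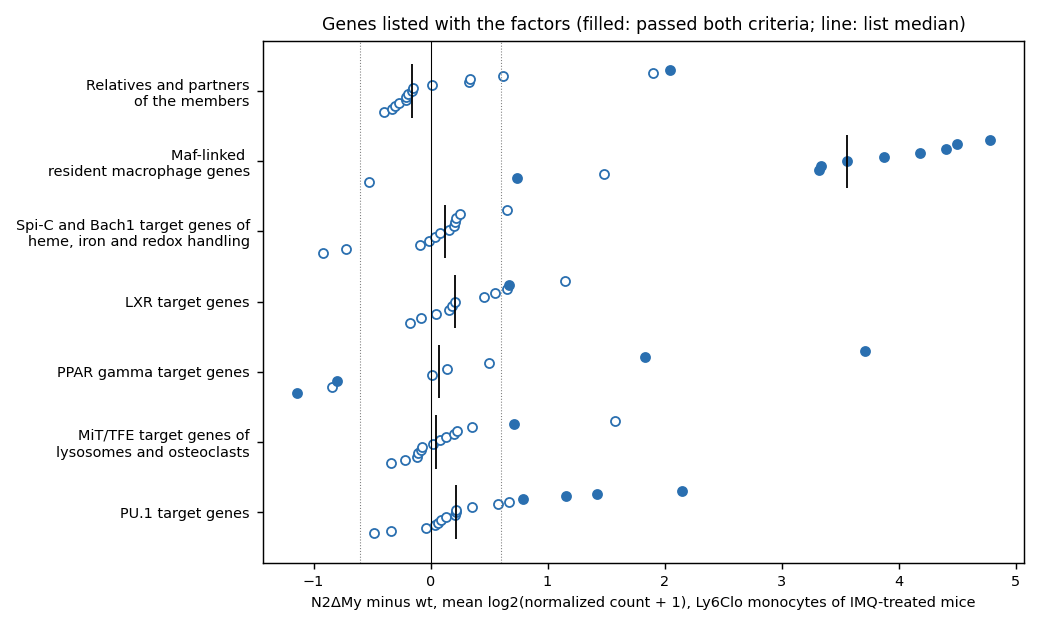
Log2 fold change of normalized count + 1 between N2ΔMy and wt Ly6Clo monocytes after IMQ (horizontal axis) for the tested genes of 7 lists (rows); filled points passed both criteria, black lines are list medians, and dotted lines mark the fold criterion. The median of the c-Maf-linked list is 3.56, and the medians of the other lists lie between -0.16 and 0.22. The c-Maf-linked list includes *C1qa*, *C1qc*, *Cd5l* and *Mertk*, which passed the filter only through N2ΔMy Ly6Clo libraries.

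As a description over the 24 libraries, with the mean of each library series removed, *Pparg* was most like *Spi1* (Pearson r 0.94 of log2 values) and *Nr1h3* (0.93) and ran opposite to *Tfec* (-0.97), while *Maf* was most like *Bach1* (0.83) and *Mitf* (0.71). These points share 6 groups, so that each value mixes differences between groups with those between libraries, and the parts were not separated. Among all genes tested, the 3 most like *Maf* were *Sept8* (0.946), *Lyz1* (0.941) and *Dennd2a* (0.936), and those most like *Spic* were *Fyb* (0.955), *Tef* (0.952) and *Mllt6* (0.943). *Spi1* was followed by *Rassf5* (0.985), *Hfe* (0.978) and *Abhd2* (0.978), *Nr1h3* by *Tcf7l2* (0.978), *Spn* (0.978) and *Eno3* (0.976), and *Pparg* by *Cd300d* (0.992), *Pecam1* (0.989) and *Spred2* (0.988). *Mitf* was followed by *Ptgs1* (0.940), *Adam15* (0.927) and *Capg* (0.924), *Tfec* by *Tle3* (0.979), *Rab44* (0.974) and *Stx3* (0.968), *Zeb2* by *Trps1* (0.905), *Srgap2* (0.898) and *RP24-375H14.1* (0.886), and *Bach1* by *Jarid2* (0.888), *Plxna1* (0.884) and *Ccl6* (0.875).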

How the data were processed

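RNA was measured by sequencing in 24 libraries of monocytes sorted from mouse peripheral blood, in 6 groups of 4 taken from genotype, subset, treatment and replicate number in the labels. The authors made stranded total RNA libraries (11 PCR cycles), read 75 bases, trimmed with Trim Galore 0.4.4, aligned with STAR 2.5.3a to GRCm38.p6 and normalized gene counts with DESeq2. The deposited values are such normalized counts rounded to whole numbers and are treated as a score, not as raw counts. The deposited table also holds the authors' own comparison (fold change, standard error, p-values), which was not used, and no column of per-sample values was left unmapped (0).

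Values were compared as log2(value + 1) with limma 3.58.1 (lmFit, eBayes with trend) in R 4.3.3, on the libraries of the groups compared, over the 11230 genes that reached 50 in any library. P-values were adjusted by Benjamini-Hochberg, and calls needed an adjusted p no higher than 0.05 together with a log2 fold change of 0.6 or more in size. Low values are compressed by the pseudocount. Depth was inferred from the whole numbers that rounded values skip (largest error on 20 simulated libraries 0.109%), and intervals and floors made from it cover counting error only. At most 1.57% of tested genes had equal values in 2 libraries. In simulated tables of 11230 genes with 200 changed, the fit for N2ΔMy against wt Ly6Clo monocytes recovered 104 of 104 changed 2-fold and 96 of 96 changed 4-fold and called 3 others. The fit for genotype by subset recovered 89 of 99 changed 2-fold and called 12 others, and that for genotype by treatment 86 of 109 and 5 others. The simulated libraries held no effect of replicate number or library series, so these counts do not cover such effects.

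Libraries with the same replicate number deviated together in each of the 7 comparisons of groups (correlations from 0.16 upwards, means 0.349 to 0.519), so fits with a replicate block were run beside the main fits. Within a library series the mean correlation was -0.0114 to 0.244. Members and gene lists were chosen with earlier results of these data known. Named genes were the 9 factors, up to 4 called genes of largest change per list and comparison with any list gene another result needs, the 3 genes most correlated with each factor, overlapping genes past the filter, and *Notch2*. Some genes of the lists are not reported here. *Selenop* and *Sept8* were matched by gene identifier. Promoter sequences are from RefSeq (GRCm38.p6), with entries for 7 of 9 factors, and exons were taken from GENCODE (GRCm38). Alternatives were another floor, no filter or a stricter filter, quantile normalization, all libraries in the fit, the block, the library series as a factor or alone, and leaving out each library. Figures were drawn with matplotlib 3.10.9, and scipy 1.17.1, pandas 2.3.3 and numpy 2.4.6 were run under Python 3.11.15.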

Additional observations from a re-analysis of the deposited data

Results flagged for a closer look

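In N2ΔMy Ly6Clo monocytes the *Pparg* value of replicate 4 (1918) lay apart from the other 3 libraries (1597 to 1645) by more than Dixon's limit for 4 values. The same held for *Tfec* in Ly6Clo monocytes, where 1 wt library held 4 and 1 N2ΔMy library held 1 normalized count while the others were at 0. With the others at 0 any single count passes this limit, so these flags say nothing about *Tfec*. With 54 sets of 4 libraries examined, chance alone flags about 1 in 20 where values are far from 0, and 3 were flagged. The effect of the genotype on *Maf* differed between Ly6Clo and Ly6Chi monocytes after IMQ by 1.70 on the log2 scale (limma adjusted p = 0.00408), with a genotype difference of 2.54 in Ly6Clo and of 0.84 in Ly6Chi monocytes.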

How the results depend on the processing

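Over the 9 factors, 41 differences were recomputed in 713 combinations, of which 670 kept direction and side of the threshold, 22 lost a call, 18 gained one and 3 reversed. *Maf* and *Mitf* between the genotypes in Ly6Clo monocytes, and *Spic*, *Pparg*, *Nr1h3* and *Tfec* between the subsets in both genotypes, kept their calls in all of them. For *Spic* and *Tfec* a subset difference was a condition for testing wherever the filter applied, so their kept calls there add no support. The reversals were uncalled values near 0, *Bach1* between the subsets in wt (0.03 in the first library series, 0.02 without replicate 3 of wt Ly6Clo, and -0.14 to 0.02 over the libraries left out) and *Zeb2* in N2ΔMy (0.06 in the second series). The causes were not tested.

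Between the genotypes in Ly6Clo monocytes 3 factors were called, 6 in the first library series alone (with *Pparg*, *Nr1h3* and *Bach1*), 4 after quantile normalization, 2 in the second series and without the filter (without *Spic*), and 3 to 4 with 1 library left out. For IMQ against Sham, 0 were called in wt without the filter and in either series alone (0 to 2 with 1 library left out), and in N2ΔMy 2 with all 24 libraries, 1 with the block and 1 in the second series (0 to 1). *Mitf* in N2ΔMy passed after IMQ without replicate 2 of Sham (0.63), and *Maf* in wt without replicate 3 of IMQ (-0.61). With the block or the series as a factor, 1 factor (*Maf*) was called between the genotypes in Ly6Chi monocytes after IMQ (0 with 1 library left out). For genotype by subset, 2 were called with the block, with the series as a factor and in the first series, and 0 in the second (1 to 2). With 1 library left out, 7 and 5 factors stayed called between the subsets in wt and N2ΔMy, and 0 between the genotypes after Sham and for genotype by treatment. The block changed no other call of a factor than those given.

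Over all genes, 537 calls between the genotypes in Ly6Clo monocytes became 215 without the filter, 939 with the block, 830 with the series as a factor and 180 in the second series (358 to 560 with 1 library left out). In Ly6Chi monocytes after IMQ, 3 became 8 without the filter, 15 with all 24 libraries, 54 with the block, 29 with the series and 1 in the second series (0 to 4), and after Sham 2 became 7 without the filter and 1 with the floor of 1.1, with quantile normalization and in either series (1 to 2). The share of higher calls there moved from 66.7% to 50% and from 50% to 100% under quantile normalization. IMQ in wt gave 592 in the second series in place of 1066 (847 to 1091), and in N2ΔMy 977 (768 to 907). The subsets gave 2760 in wt (2516 to 2719) and 1953 in N2ΔMy (1655 to 1938). Genotype by subset gave 116, 271 with the block, 210 with the series and 18 in the second series (75 to 173), and genotype by treatment 0, 1 without the filter (0 with 1 library left out). Depth limits *Spic* and *Nr1h3* in Ly6Chi and *Tfec* in Ly6Clo monocytes.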
